A study of Mus musculus with 6 samples.

Results

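Ribosome-bound RNA precipitated from diaphragm muscle of Wnt1-Ribotag mouse embryos was compared with total RNA of whole wild-type diaphragm, 2 libraries against 2 of the 6 libraries in the series. The labels gave the groups. Wnt1-Ribotag libraries 1 and 2 carry Wnt1-Cre and the Ribotag allele, are labelled erbB3 WT, and hold RNA from a polysome precipitation with an antibody against hemagglutinin. Wild-type libraries 5 and 6 are labelled erbB3 WT, carry neither Cre nor Ribotag in their labels, and hold total RNA. All 4 came from embryos at E14.75. Each Wnt1-Ribotag library stands for 4 Cre-positive diaphragms of a litter that was homogenized whole, and was made from far less RNA than a wild-type library, so that the preparation, the alleles and the RNA input differ together between the groups and cannot be told apart. The remaining 2 libraries, from erbB3 mutant diaphragm, which the labels describe as lacking Schwann cells, are given only as further levels.

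Ribotag mice carry a Cre-dependent, hemagglutinin-tagged form of the ribosomal protein Rpl22, so that ribosomes of Cre-expressing cells, with the mRNA they are translating, can be pulled out of a whole tissue. Wnt1-Cre is active in the early neural crest, and the cells that descend from it keep the recombined allele. Neural crest gives rise to Schwann cells, to sensory and autonomic neurons, to melanocytes and to chromaffin cells of the adrenal medulla, whereas skeletal muscle, endothelium and blood have other origins. Schwann cells are the glia of peripheral nerves and cover the phrenic nerve and its terminals in the diaphragm. The question put to these libraries was which transcripts of the muscle belong to Schwann cells.

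Values are RPKM, reads normalized to the length of the gene and the depth of the library, as deposited by the authors. Differences are given on the scale of log2(RPKM + 0.5), Wnt1-Ribotag minus wild-type, for the 14418 of 23073 genes whose mean RPKM in the 4 libraries reached 0.5. The depth implied by the lowest values was at least 100178863 and at most 229922644 reads in the 4 libraries, and 17205 and 17945 genes were above the floor in the precipitates against 19492 and 20241 in whole muscle. Skeletal muscle fiber genes, which define the labelled tissue, were present in every library, with a summed RPKM between 4293 and 5147. Rpl22, the tagged gene, had an RPKM of 156 and 135 in the precipitates and 140 and 135 in wild-type muscle. Wnt1 itself was at the floor in 3 of the 4 libraries, with an RPKM of at most 0.0209.

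With 2 libraries a group, limma's linear model across all genes passed 1 gene at an adjusted p of 0.05 (0.00694% of the genes tested), and 2813 genes had an unadjusted p under 0.05. An exact permutation test of a single gene could not go below 0.333 in this design. Genes were therefore also counted by size, without a test. At least 2-fold higher in all 4 pairs of 1 precipitate and 1 wild-type library were 218 genes, or 1.51% of the genes tested, and 119 genes, or 0.825%, were at least 2-fold lower in all 4. Within 2-fold in every pair were 11134 genes, or 77.2%. The median difference of all genes tested was -0.051. Without Wnt1-Ribotag 1, Wnt1-Ribotag 2, wild-type 5 or wild-type 6, each of which leaves fewer pairs, 794, 736, 270 and 383 genes were higher and 431, 619, 151 and 184 lower. The wild-type libraries are separate biological samples in the study's account and each precipitate is a pool of diaphragms, so that p-values measure the spread between 2 preparations a group. In bulk RNA fewer cells of a type and less RNA per cell cannot be told apart.

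Genes of the Schwann lineage were higher in both precipitates. Of a list of 42 such genes, all of them in the files, 37 passed the filter on low values, and 18 of these were at least 2-fold higher in all 4 pairs, none was at least 2-fold lower, 9 stayed within 2-fold, and 10 lay between. The background for the first count is 1.51%. The median difference of the 37 genes was 1.82, against -0.051 over all genes tested, with 1.21 and 2.45 for the precipitates 1 and 2 taken singly. The filter takes the mean of the 4 libraries, so a gene low in wild-type muscle can pass through the precipitates alone. Such genes enter only where they are higher, here and in the lists below. Without the filter the median over all 42 genes was 1.47, against -0.0034 over all genes. Unadjusted p from limma was under 0.05 and the level higher for 25 of the 37, where 8.19% of all genes were so. None of the 37 passed the adjusted threshold in the fit of 4 libraries, and 13 did when the erbB3 mutant libraries also entered the fit and lent their spread, a fit in which 0.957% of all genes passed, 0.590% upward and 0.368% downward. Tfap2a, Zfp488, Pmp2 and Cadm2 were among the 5 members that did not reach the filter. Pmp2, a myelin protein of mature Schwann cells, was at most 0.0978 RPKM in any of the 4 libraries.

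**Figure D1:**
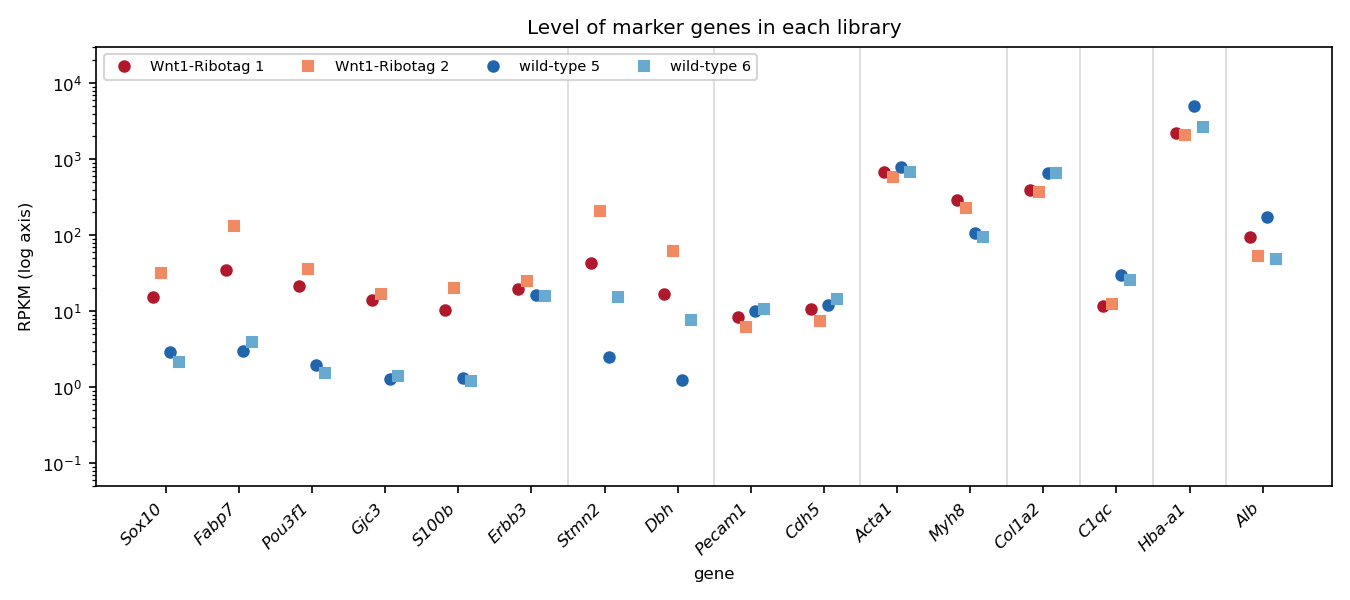
RPKM on a log axis of 16 genes (x axis) in Wnt1-Ribotag 1 and 2 and wild-type 5 and 6, 1 point a library, with vertical lines between cell types (Schwann lineage, neurons, endothelium, muscle, fibroblast, macrophage, red blood cell and hepatocyte). The points of the 2 precipitates stand above both wild-type points from Sox10 to Erbb3, by the smallest margin in Erbb3, and stand among or below them in Pecam1, Cdh5, Acta1 and Col1a2.

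Regulators of the lineage stood well above wild-type muscle. Sox10, the transcription factor that specifies and maintains Schwann cells, had an RPKM of 15.5 and 32.2 in Wnt1-Ribotag 1 and 2 and of 2.89 and 2.16 in wild-type 5 and 6. Both precipitates were thus above both wild-type libraries, the mean 9.45-fold, and between 5.38-fold and 14.9-fold in the 4 pairs. The log2 difference was 2.93 (SE 0.38, adjusted p = 0.134 from limma). Pou3f1, a POU factor of Schwann cells on the way to myelination, had an RPKM of 21.5 and 36.4 against 1.97 and 1.56 (log2 difference 3.66, SE 0.30, adjusted p = 0.106 from limma). Foxd3, a factor of neural crest and early glia, stood at 9.02 and 12.4 against 2.18 and 1.59. Tfap2b was uneven, with 1.56 and 15.9 RPKM in the precipitates and 0.050 and 2.09 in wild-type muscle, so that the groups overlapped. Sox2, which immature Schwann cells express, had an RPKM of 0.703 and 4.65 in the precipitates against 0.152 and 0.209, and Wnt1-Ribotag 2 carried most of its difference.

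Fabp7, the fatty acid binding protein of Schwann cell precursors and immature glia, showed the largest difference of the list. Its RPKM was 35.2 and 134 in Wnt1-Ribotag 1 and 2 and 3.0 and 3.93 in wild-type 5 and 6. The 2 precipitates differed 3.81-fold from each other, and the lower of them was 8.97-fold above the higher wild-type library (log2 difference 4.14, SE 0.63, adjusted p = 0.148 from limma). Gjc3, a connexin of myelinating glia, stood at 13.9 and 16.8 RPKM against 1.27 and 1.40, and its log2 differences in the 4 pairs, 2.92 to 3.29, spanned the narrowest range among the 18 genes at least 2-fold higher in all pairs. Its log2 difference was 3.10 (SE 0.20, adjusted p = 0.0631 from limma, and 0.00809 with all 6 libraries in the fit). The calcium-binding protein gene S100b, a classical Schwann cell marker, had an RPKM of 10.3 and 20.0 against 1.33 and 1.21.

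Myelin genes were divided. Mal, a proteolipid of myelin membranes, had an RPKM of 4.60 and 7.19 in the precipitates and of 0.274 and 0.140 in wild-type muscle. In Mbp the precipitates, at 5.72 and 11.0 RPKM, were also above wild-type muscle, at 3.0 and 2.72, in Wnt1-Ribotag 1 by less than 2-fold on the log2(RPKM + 0.5) scale. Cnp, an enzyme of glial membranes, was similar, at 16.9 and 32.2 against 9.66 and 9.67. Pmp22 overlapped between the groups, at 48.3 and 57.6 RPKM against 49.7 and 45.5, and so did Prx, the periaxin gene, at 4.11 and 3.60 against 3.90 and 3.99. The log2 differences of Pmp22 and Prx were 0.15 and -0.031, each within 2-fold in all 4 pairs.

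Receptors and surface proteins showed the same range. Gfra3, a co-receptor for the ligand artemin, had an RPKM of 7.98 and 36.1 in the precipitates and 0.787 and 1.68 in wild-type muscle. Ednrb, the endothelin receptor of crest derivatives, had 36.4 and 73.5 against 8.13 and 10.5, and the adhesion molecule Cadm4 had 33.2 and 64.7 against 11.1 and 11.5. The neurotrophin receptor gene Ngfr had 55.1 and 66.0 against 28.8 and 22.3, above wild-type in every pair but not 2-fold above wild-type 5 in Wnt1-Ribotag 1. Erbb3, the neuregulin receptor that Schwann cells depend on, differed less than these. Its RPKM was 19.5 and 25.3 in the precipitates against 16.5 and 15.8, a log2 difference of 0.45 (SE 0.20, adjusted p = 0.293 from limma), and it was 21.5 and 11.9 in the erbB3 mutant libraries, where Sox10 was 0.00854 and 0.0178 and Pou3f1 0.147 and 0.135. Gap43, a growth-associated protein of axons that immature Schwann cells also make, had 56.1 and 239 RPKM against 7.42 and 23.8, and unlike most of the list it also differed between the wild-type libraries.

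**Figure D2:**
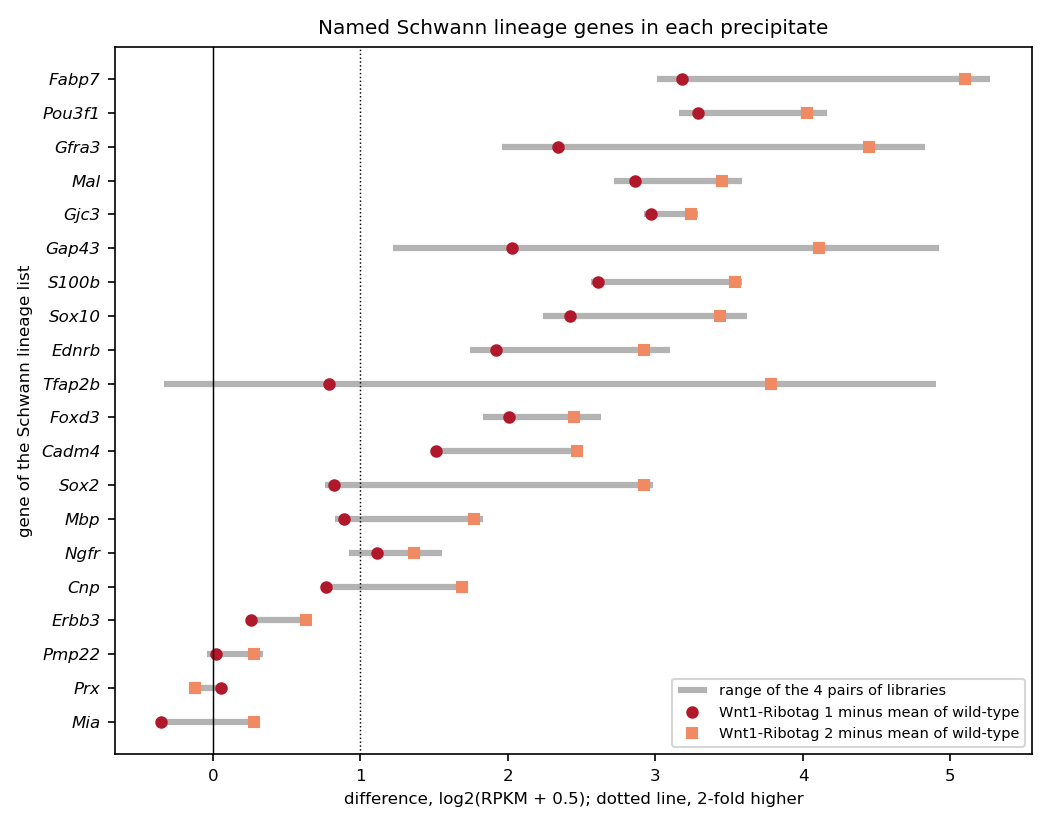
Difference from wild-type muscle on the log2(RPKM + 0.5) scale (x axis) of 20 named genes among the 37 of the Schwann lineage tested (y axis), with Wnt1-Ribotag 1 as circles and Wnt1-Ribotag 2 as squares, each against the mean of the wild-type libraries, and the range of the 4 pairs as a bar. The square lies to the right of the circle in most genes, and the genes at the bottom, among them Erbb3, Pmp22, Prx and Mia, lie near 0.

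Promoter sequences, 250 bases before to 50 after the start in RefSeq, were in the table used for 11 of the 18 Schwann lineage genes that were at least 2-fold higher in all pairs. They were searched on both strands for ACAAAG and ACAATG, letters of the kind SOX factors bind, which share ACAA and were counted together. A match was found in the promoter of 1 of these 11, Cadm4, 121 bases before the start. Over all promoters of tested genes on the list, 5 of 31 (16.1%) held a match, against 9394 of 32851 (28.6%) in the whole table. The E-box CAGCTG was in 4 of the 31 (12.9%), against 16.3% of the whole table. Shown are the member with the largest difference, the member with the narrowest range over the 4 pairs and the member with the match, from build GRCm38.p6, with the matched letters in capitals. Fabp7 is at chr10:57784673-57784972 on the plus strand, Gjc3 at chr5:137963049-137963348 on the minus strand, and Cadm4 at chr7:24481773-24482072 on the plus strand.
Fabp7: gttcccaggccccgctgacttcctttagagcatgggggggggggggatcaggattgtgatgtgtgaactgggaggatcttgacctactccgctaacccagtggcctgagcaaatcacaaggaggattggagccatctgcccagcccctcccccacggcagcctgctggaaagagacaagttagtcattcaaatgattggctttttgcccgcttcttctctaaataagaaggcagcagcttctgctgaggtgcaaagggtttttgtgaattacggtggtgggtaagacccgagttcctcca
Gjc3: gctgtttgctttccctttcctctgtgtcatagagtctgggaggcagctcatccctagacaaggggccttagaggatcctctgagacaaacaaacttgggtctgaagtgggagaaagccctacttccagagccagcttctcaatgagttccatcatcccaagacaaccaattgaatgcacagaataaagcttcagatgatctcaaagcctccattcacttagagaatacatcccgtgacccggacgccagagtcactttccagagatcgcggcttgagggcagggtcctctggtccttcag
Cadm4: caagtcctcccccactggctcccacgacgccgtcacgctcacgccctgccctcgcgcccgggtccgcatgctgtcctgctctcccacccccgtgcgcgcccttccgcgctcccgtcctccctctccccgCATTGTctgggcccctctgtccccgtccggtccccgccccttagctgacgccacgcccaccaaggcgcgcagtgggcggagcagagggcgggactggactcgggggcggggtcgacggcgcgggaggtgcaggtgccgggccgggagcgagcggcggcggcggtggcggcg

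Genes of neurons were also higher in the precipitates, and more unevenly. Of 20 axonal and neuronal genes, 19 were tested, with a median difference of 2.54, and 2.47 over all 20 without the filter. All 19 had a difference above 0, as 6573 of the 14418 genes tested had. At least 2-fold higher in all 4 pairs were 6 of them, against 1.51% of all genes, and none stayed within 2-fold in all pairs, against 77.2%. The median was 1.67 without wild-type 5 and 3.41 without wild-type 6. Taken singly, the precipitates 1 and 2 had medians of 1.39 and 3.51. The wild-type libraries differed as well, by a median of 1.70 in favour of wild-type 6, in which all 19 genes were higher than in wild-type 5. Over all genes tested, 8787 of 14418 were higher in wild-type 6. Stmn2, a tubulin regulator of growing axons, had an RPKM of 42.9 and 211 in the precipitates and of 2.51 and 15.5 in wild-type 5 and 6. The nerve microtubule gene Tubb3 had 28.1 and 96.1 against 2.23 and 13.5. For the neurofilament gene Nefm, Wnt1-Ribotag 1 at 9.59 RPKM lay between wild-type 5 at 2.30 and wild-type 6 at 11.7, so that the groups overlapped. The part that the neural RNA content of each dissection played in these differences was not tested.

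Genes of autonomic, sensory and motor neurons were mixed. Of 14 autonomic and sensory neuron genes, 12 were tested, with a median difference of 1.85, 1.22 in Wnt1-Ribotag 1 and 2.66 in Wnt1-Ribotag 2. At least 2-fold higher in all pairs were 3 of the 12, against 1.51% of all genes, and 2 stayed within 2-fold, against 77.2%. A difference below 0 was found in 2, and in 7845 of all 14418 genes tested. Without the filter the median over all 14 was 1.71. The wild-type libraries differed in this list by a median of 0.87 in favour of wild-type 6. Phox2a, a factor of autonomic neurons, had an RPKM of 9.71 and 40.3 against 0.448 and 3.62. Dbh, the enzyme that makes noradrenaline, had 16.7 and 61.5 against 1.26 and 7.64, and Th, the first enzyme of catecholamine synthesis, had 5.5 and 38.9 against 0.286 and 5.01. Pou4f1, a factor of sensory neurons, was not higher, and had 0.558 and 0.371 RPKM against 0.575 and 0.504. Of 6 motor neuron genes in the files, Chat, Mnx1 and Lhx3, the enzyme and factors that define motor neurons, were below the filter, with an RPKM of at most 0.0437 in any of the 4 libraries. The median of the 3 tested was 1.27, with Ret, a receptor subunit that other neurons share, at 1.29 and 5.55 against 0.136 and 1.93, and the choline transporter gene Slc5a7 at 0.882 and 0.589 against 0.626 and 1.24. The groups overlapped in both. Isl1, which motor, sensory and sympathetic neurons share, had 7.08 and 18.5 against 3.0 and 6.60. The only melanocyte gene tested was Mitf, with an RPKM of 2.00 and 0.787 in the precipitates against 0.829 and 0.940.

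Genes of the adrenal gland were looked up after the largest differences had been seen, so that their counts are a description. Some of them, such as Scg2, Cyp11b1 and Cyp21a1, passed the filter through the precipitates alone. Chga, the granule protein chromogranin A, had an RPKM of 10.7 and 99.4 against 0.323 and 2.17, Chgb had 5.77 and 57.2 against 0.134 and 1.60, and Scg2 had 2.92 and 36.6 against 0.134 and 0.242. Pnmt, the enzyme that converts noradrenaline to adrenaline in chromaffin cells, had 2.44 and 21.1 against 0.420 and 0.280. Of 13 chromaffin secretory genes, 12 were tested, 6 of them at least 2-fold higher in all pairs, against 1.51% of all genes. Of 15 genes of the adrenal cortex, a tissue that is not of neural crest origin, 11 were tested, of which 9 were higher and 2, Hsd3b6 and Fdx1, lower in both precipitates without overlap, against 23.3% and 31.0% of all genes. Hsd3b6 had an RPKM of 0.840 and 0.292 against 1.0 and 1.24, and Fdx1 had 3.24 and 5.60 against 5.88 and 5.93. Among the higher ones, the steroid enzyme gene Cyp11b1 had an RPKM of 5.79 and 1.92 against 0.0196 and 0.00171, Cyp21a1 had 2.88 and 3.78 against 0.0390 and 0.0171, and Star, which brings cholesterol into mitochondria for steroid synthesis, had 12.3 and 8.54 against 1.53 and 1.77. Of the 11 cortex genes tested, 4 were at least 2-fold higher in all pairs, against the same 1.51%, while Cyp17a1, Nr0b1, Cyp11b2 and Nr5a1 were below the filter. Of these Nr5a1, a factor of steroid-making tissue, had 0.757 and 0.692 RPKM in the precipitates against 0.0253 and 0.0179, and Cyp17a1 had at most 0.00423 in them. Of the 11 cortex genes 7 were higher in Wnt1-Ribotag 2, as Pnmt and Chga were, by a median of 0.34 over the 11, while Star and Cyp11b1 were among the 4 that were higher in Wnt1-Ribotag 1. Over all genes tested, 8836 of 14418 were higher in Wnt1-Ribotag 2. The summed RPKM of the cortex list was 42 and 50 in the precipitates and 19.8 and 19.2 in wild-type muscle. The part of adrenal tissue in the precipitates was not tested.

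**Figure D3:**
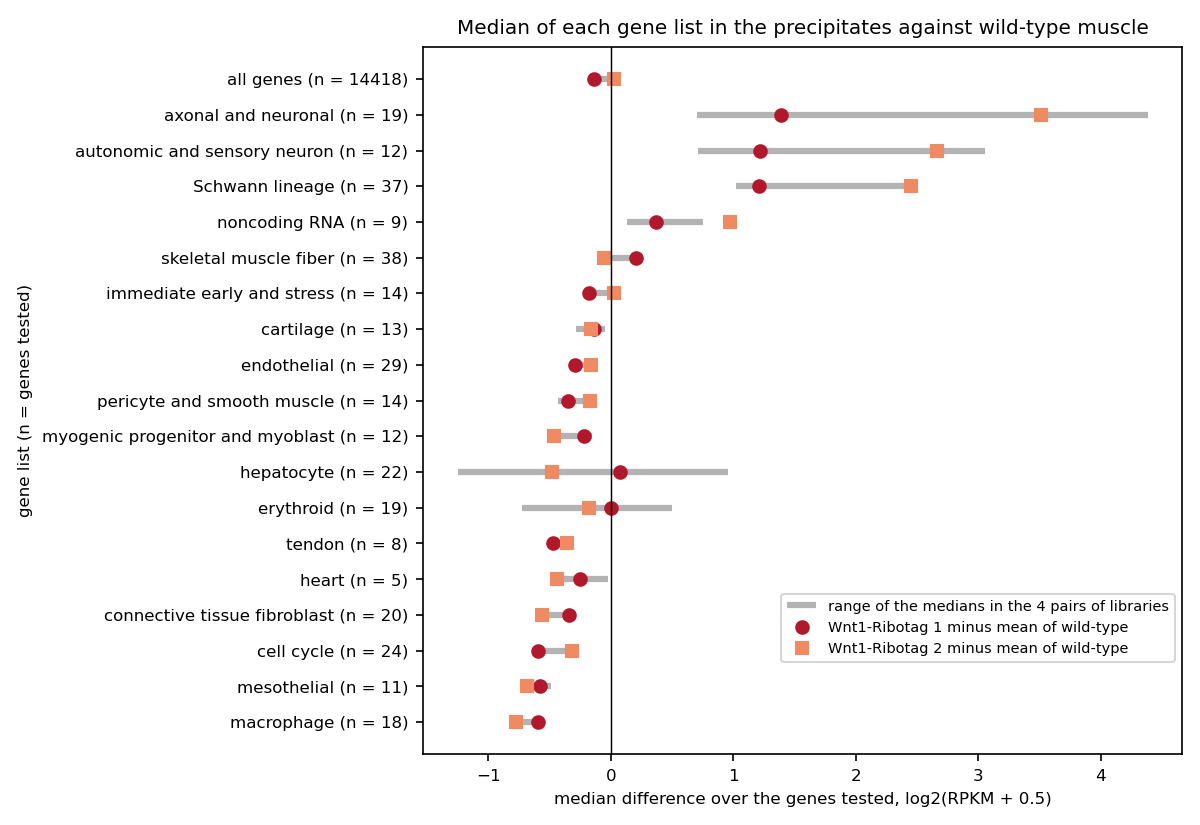
Median difference from wild-type muscle (x axis, log2(RPKM + 0.5)) of each gene list with at least 5 genes tested (y axis), leaving out the adrenal lists, in Wnt1-Ribotag 1 (circles) and Wnt1-Ribotag 2 (squares), with the range of the medians in the 4 pairs of libraries as a bar. The axonal and neuronal, autonomic and sensory neuron and Schwann lineage lists stand apart on the right in both precipitates, and the macrophage list, at -0.59 and -0.77, and the mesothelial list, at -0.58 and -0.68, lie to the left.

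Endothelial genes lay mostly within 2-fold of whole muscle, and more of them under it than above. Of 30 such genes, 29 were tested, 25 of them within 2-fold in all 4 pairs (86.2%, against 77.2% of all genes) and none at least 2-fold different in all pairs. Without overlap between the groups 16 were lower and 3 higher, against 31.0% and 23.3% of all genes. Their median was -0.19, with -0.29 and -0.16 for the precipitates 1 and 2. Pecam1, the adhesion molecule that marks endothelium, had an RPKM of 8.33 and 6.15 in the precipitates and 10.2 and 10.6 in wild-type muscle. Both precipitates were below both wild-type libraries (log2 difference -0.51, SE 0.21, adjusted p = 0.278 from limma). The endothelial cadherin gene Cdh5 had 10.8 and 7.46 against 12.2 and 14.4, and Eng, a co-receptor of vascular cells, had 8.86 and 10.2 against 12.8 and 11.2. Egfl7, an endothelial secreted factor, went the other way at 18.3 and 28.6 against 12.3 and 11.6. In summed RPKM the list was at 130 and 139 in the precipitates against 152 and 155.

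Pericyte and smooth muscle genes were divided. Of 15 genes 14 were tested, with a median of -0.19 and 7 within 2-fold in all pairs, where 77.2% of all genes were. The median was -0.35 without Wnt1-Ribotag 2. Rgs5, a regulator of G protein signalling in pericytes, had an RPKM of 20.4 and 15.1 against 3.79 and 4.47, and Ndufa4l2 had 7.89 and 19.3 against 2.45 and 3.15. Both were at least 2-fold higher in all pairs and were picked out after their values were seen. Of the 14 genes, 4 were higher and 7 lower in the precipitates without overlap between the groups, against 23.3% and 31.0% of all genes. Myh11, the myosin heavy chain of smooth muscle, was among the higher ones at 1.58 and 2.99 RPKM against 1.36 and 1.25. Among the lower ones, the smooth muscle actin gene Acta2 had 168 and 117 against 286 and 296, the pericyte receptor gene Pdgfrb 13.8 and 12.1 against 20.4 and 21.9, and Tagln 34.8 and 39.5 against 56.9 and 65.3. The pericyte gene Higd1b was at the floor in both precipitates.

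Skeletal muscle fiber genes in the precipitates lay close to their level in whole muscle. Of 40 genes, 38 were tested, and 37 of them (97.4%) stayed within 2-fold in all 4 pairs, against 77.2% of all genes, 85.6% of those with a mean RPKM from 10 to 100 and 88.6% of those above. The median difference was 0.11, with 0.21 and -0.055 for the precipitates 1 and 2. Acta1, the actin of skeletal fibers, had an RPKM of 678 and 578 in the precipitates and 796 and 671 in wild-type muscle, and Myl1, a myosin light chain, had 395 and 425 against 460 and 420. The groups overlapped in both. Mylpf, another light chain, was lower in both precipitates, at 797 and 795 against 1293 and 995, and the embryonic myosin heavy chain gene Myh3 was higher, at 394 and 295 against 257 and 224. The exception to the 37 was Myh8, the perinatal myosin heavy chain, with an RPKM of 294 and 226 against 106 and 95.2 (log2 difference 1.35, SE 0.20, adjusted p = 0.148 from limma).

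Genes of muscle precursors followed the same line at a lower level. Of 12 genes tested, 11 were within 2-fold in all pairs, where 77.2% of all genes were, and the median was -0.19, which was -0.46 without Wnt1-Ribotag 1 and -0.35 without wild-type 6. Myog, the factor that starts fiber differentiation, had an RPKM of 160 and 172 against 266 and 212, and Myod1, which commits cells to muscle, had 30.5 and 38.6 against 55.1 and 52.1. Both precipitates were below both wild-type libraries in each of these genes. Mymk, a fusion protein of myoblasts, had 41.2 and 41.4 against 38.7 and 31.7. No muscle gene in either list passed the adjusted threshold in the fit of 4 libraries or in that of all 6.

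Connective tissue, mesothelium and tendon lay below whole muscle by small amounts. The 20 fibroblast genes had a median of -0.36, with 15 of them within 2-fold in all pairs, close to the share of all genes. The collagen gene Col1a2 had an RPKM of 389 and 366 against 660 and 662, and Dcn, a proteoglycan of the matrix, had 167 and 170 against 309 and 314, each with libraries of a group close to one another. For Col3a1 the groups overlapped, at 746 and 1007 against 942 and 934. The 11 mesothelial genes tested had a median of -0.67, and 1 of them was at least 2-fold lower in all pairs, where the background is 0.825%. This was Lrrn4, with 13.6 and 10.9 RPKM against 35.7 and 28.8. Wt1, the factor of the mesothelial lining of the diaphragm, had 18.5 and 20.4 against 26.9 and 30.6. The 8 tendon genes had a median of -0.31, with Scx, the tendon factor, at 20.3 and 16.2 against 22.7 and 23.5, and 13 of 20 cartilage genes were tested with a median of -0.13.

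Macrophage genes were mostly lower in the precipitates. Of 20 genes 18 were tested, 16 with a difference below 0, as 7845 of all 14418 genes had. Lower without overlap between the groups were 15, against 31.0% of all genes. Within 2-fold in all pairs were 7, against 77.2% of all genes. The median of the list was -0.76, and the precipitates 1 and 2 were close to each other, at -0.59 and -0.77. C1qc, a chain of complement C1q, had an RPKM of 11.7 and 12.6 against 30.1 and 25.7 and was the 1 member at least 2-fold lower in all pairs, against 0.825% of all genes, and C1qb had 19.8 and 19.1 against 40.3 and 30.7. Tyrobp, an adaptor of myeloid receptors, had 14.2 and 13.7 against 30.7 and 22.5. Laptm5, a lysosomal protein of blood cells, was at 28.4 and 14.2 against 15.6 and 13.2. Cell cycle genes were also mostly lower, with 23 of 24 below 0 and a median of -0.44. Lower without overlap were 19 of the 24, against 31.0% of all genes. Within 2-fold in all pairs were also 19, near the 77.2% of all genes. The replication clamp gene Pcna had an RPKM of 81.1 and 103 against 143 and 128.

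Blood and liver genes also varied within the wild-type group. The globin gene Hba-a1 had an RPKM of 2193 and 2102 in the precipitates and of 5095 and 2686 in wild-type 5 and 6, and Hbb-bt had 798 and 683 against 2041 and 961. The 19 erythroid genes had a median of -0.25, which was -0.71 without wild-type 6 and 0.22 without wild-type 5. The 22 hepatocyte genes tested had a median of -0.20, which was -1.02 without wild-type 6 and 0.75 without wild-type 5, and none stayed within 2-fold in all pairs. Alb, the serum albumin gene, had an RPKM of 94.3 and 53.5 in the precipitates against 174 and 48.2, and Afp had 98.5 and 82.5 against 200 and 74.1. In Alb and Afp both precipitates lay between the wild-type libraries, and in both globin genes they lay below them. Serpinc1 and Serpind1, thrombin inhibitors made by liver and the genes for which the precipitation was done, overlapped between the groups. The RPKM of Serpinc1 was 1.10 and 1.19 in the precipitates against 3.15 and 0.896 (log2 difference -0.46, SE 0.50, adjusted p = 0.646 from limma), and that of Serpind1 was 4.07 and 1.22 against 3.04 and 1.02 (log2 difference 0.27, SE 0.63, adjusted p = 0.835 from limma). Both were higher in wild-type 5 than in wild-type 6 by 1.39 and 1.22 on the log2 scale, beside a median of 1.54 for the hepatocyte list, and the part of liver RNA in their level was not tested.

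**Figure D4:**
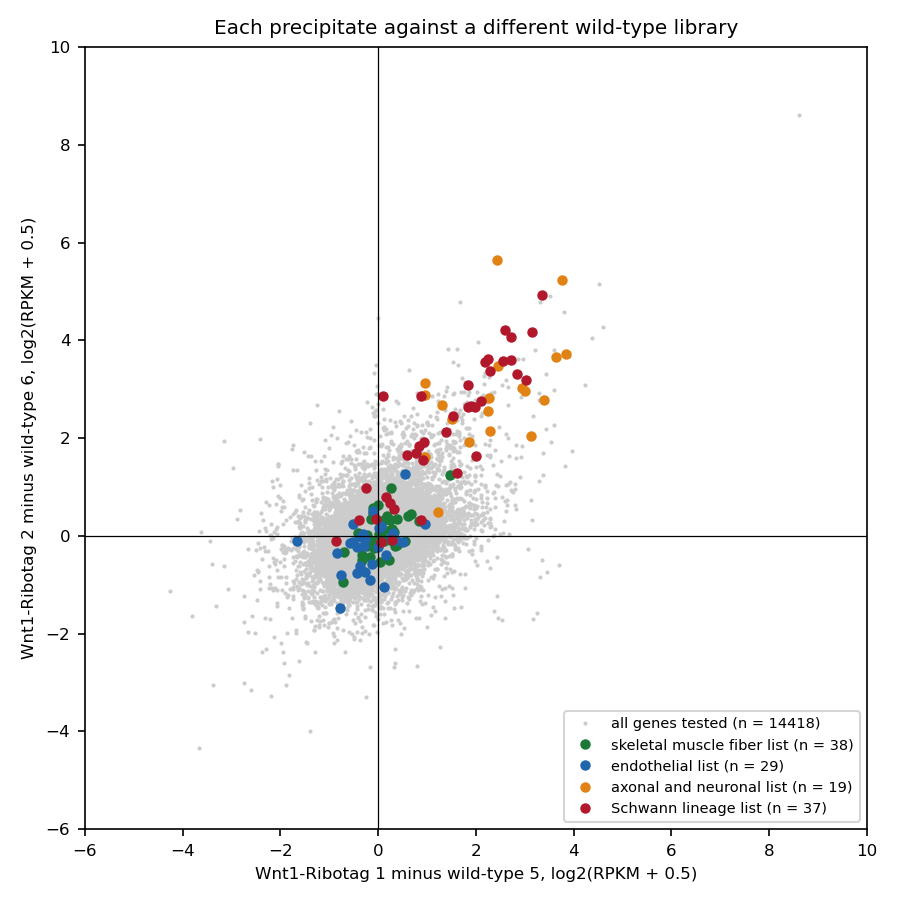
Difference of Wnt1-Ribotag 1 from wild-type 5 (x axis) against that of Wnt1-Ribotag 2 from wild-type 6 (y axis), both on the log2(RPKM + 0.5) scale, for the 14418 genes tested, with 4 gene lists in color. Schwann lineage and neuronal genes extend to the upper right, muscle and endothelial genes gather around 0, and the single point near 8.6 on both axes is Sptb.

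The 18 Schwann lineage genes and 9 genes of the neuronal lists were a small part of the 218 genes at least 2-fold higher in all pairs, of which 187 were on none of the 21 cell type and gene class lists, the later adrenal and Y-linked lists not counted. Sptb, the beta spectrin of the red blood cell membrane, was the gene past the adjusted threshold. Its RPKM was 1479 and 1114 in the precipitates and 3.27 and 2.36 in wild-type muscle, a 460-fold difference of the means (log2 difference 8.61, SE 0.23, adjusted p = 0.00311 from limma), and 2.54 and 0.738 in the erbB3 mutant libraries. Sptb held 0.368% and 0.261% of the RPKM total of the precipitates. The globins Hba-a1 and Hbb-bt of the same cells were lower in the precipitates than in wild-type muscle.

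Other genes on no list also stood far above wild-type muscle in both precipitates. Birc6, an inhibitor of apoptosis with ubiquitin ligase activity, had an RPKM of 140 and 435 against 9.52 and 10.8. Unc13b, a synaptic vesicle priming factor, had 30.6 and 82.1 against 2.20 and 2.26, and Fat4, a giant cadherin, had 84.9 and 165 against 8.69 and 11.3. The host gene Mir142hg of blood cells had 15.1 and 9.42 against 0.784 and 0.747, opposite to the macrophage list. Gm10260, annotated as protein-coding, had 38.6 and 62.9 against 1.21 and 1.29 (log2 difference 4.83, SE 0.27, adjusted p = 0.0631 from limma). With all 6 libraries in the fit, Sptb, Gm10260, Birc6, Unc13b and Fat4 had an adjusted p from limma between 0.00179 and 0.0176. In that fit 138 genes passed, 85 of them higher and 53 lower in the precipitates.

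Some of the largest differences were in genes of the sex chromosomes. The Y-linked genes Ddx3y, Eif2s3y, Kdm5d and Uty were at least 2-fold higher in all pairs, with Ddx3y at 9.90 and 7.97 RPKM in the precipitates and 0.00209 and 0.0117 in wild-type muscle. In the erbB3 mutant libraries Ddx3y was 0.00860 and 16.2. Xist, the transcript of the inactive X chromosome, had 71.4 and 52.8 against 144 and 182, and was at least 2-fold lower in all pairs.

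Genes at least 2-fold lower in all pairs were more frequent in several small and noncoding classes than among protein-coding genes. Of 13360 protein-coding genes tested, 71 (0.531%) were lower by this count, against 9 of 35 microRNA genes (25.7%), 10 of 184 antisense genes (5.43%) and 4 of 50 small nucleolar RNA genes (8.0%). At the floor in both precipitates were 9 microRNA, 4 small nucleolar RNA and 1 protein-coding gene. Such genes passed the filter through the wild-type libraries, which set their direction, so that these counts are a description. Above the floor in all 4 libraries, 93 genes of any class were lower. Gm9801, a long noncoding RNA, was at the floor in both precipitates and had an RPKM of 8.39 and 12.6 in wild-type muscle, and Mir1188 was at the floor in both against 7.01 and 4.93. Genes at least 2-fold higher in all pairs were also more frequent in some of these classes, at 8.57% of microRNA, 7.25% of long intergenic noncoding and 4.0% of small nucleolar RNA genes, against 1.47% of protein-coding and 1.09% of antisense genes. The libraries were made from polyadenylated RNA, so that reads over a microRNA gene are not the mature microRNA. Among protein-coding genes at least 2-fold lower in all pairs, Igfbp6, a binding protein of insulin-like growth factors, had the largest decrease on the log2(RPKM + 0.5) scale. It had 0.779 and 1.48 RPKM against 7.13 and 5.70 (log2 difference -2.11, SE 0.30, adjusted p = 0.144 from limma). As a plain ratio of RPKM the decrease was larger in Htr1b, at 0.00639 and 0.00450 against 1.12 and 1.42. Ppp1r14a, an inhibitor of myosin phosphatase in smooth muscle, had 2.41 and 0.981 against 8.46 and 8.27. Cep85l, a centrosomal protein gene, had 10.3 and 32.0 against 72.0 and 75.5. Of the long noncoding RNAs on the list, Meg3 overlapped between the groups, at 157 and 148 against 154 and 159, and Gas5, a host of small nucleolar RNAs, was at 81.3 and 137 against 41.5 and 48.6.

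The precipitates were less alike than the wild-type libraries. Pearson's r of the log2 values across the 14418 genes, which are no independent replicates, was 0.929 between the precipitates and 0.990 between the wild-type libraries, and the median absolute difference was 0.39 and 0.13. At least 2-fold apart were 1899 genes (13.2%) between the precipitates and 149 genes (1.03%) between wild-type 5 and 6. The gap was widest at low levels. Where the mean RPKM lay from 0.5 to 1, 32.8% of genes were at least 2-fold apart between the precipitates, and where it was 100 or more, 3.09% were. By gene class the median absolute difference between the precipitates was 0.38 for protein-coding and 1.97 for small nucleolar RNA genes. Snord99 had an RPKM of 23.0 and 0.0768 in Wnt1-Ribotag 1 and 2, and Snora28 had 0.0631 and 13.2. The hormone gene Sst was at the floor in Wnt1-Ribotag 1 and had an RPKM of 12 in Wnt1-Ribotag 2.

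The precipitates also differed in a directed way. Of the 37 Schwann lineage genes tested, 34 were higher in Wnt1-Ribotag 2, with a median difference of 0.93 in its favour, whereas the wild-type libraries differed in them by a median of -0.030, wild-type 5 minus wild-type 6. Sox10 was 2.07-fold and Fabp7 3.81-fold higher in Wnt1-Ribotag 2, while Gjc3 was 1.21-fold higher. Over all genes 8836 of 14418 were higher in Wnt1-Ribotag 2, by a median of 0.15. In the axonal and neuronal list 18 of 19 genes were higher in Wnt1-Ribotag 2, by a median of 2.23. Dcx, the remaining gene of the 19, had 14.5 and 12.4 RPKM. The endothelial list differed between the precipitates by a median of 0.030 and the macrophage list by 0.061.

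**Figure D5:**
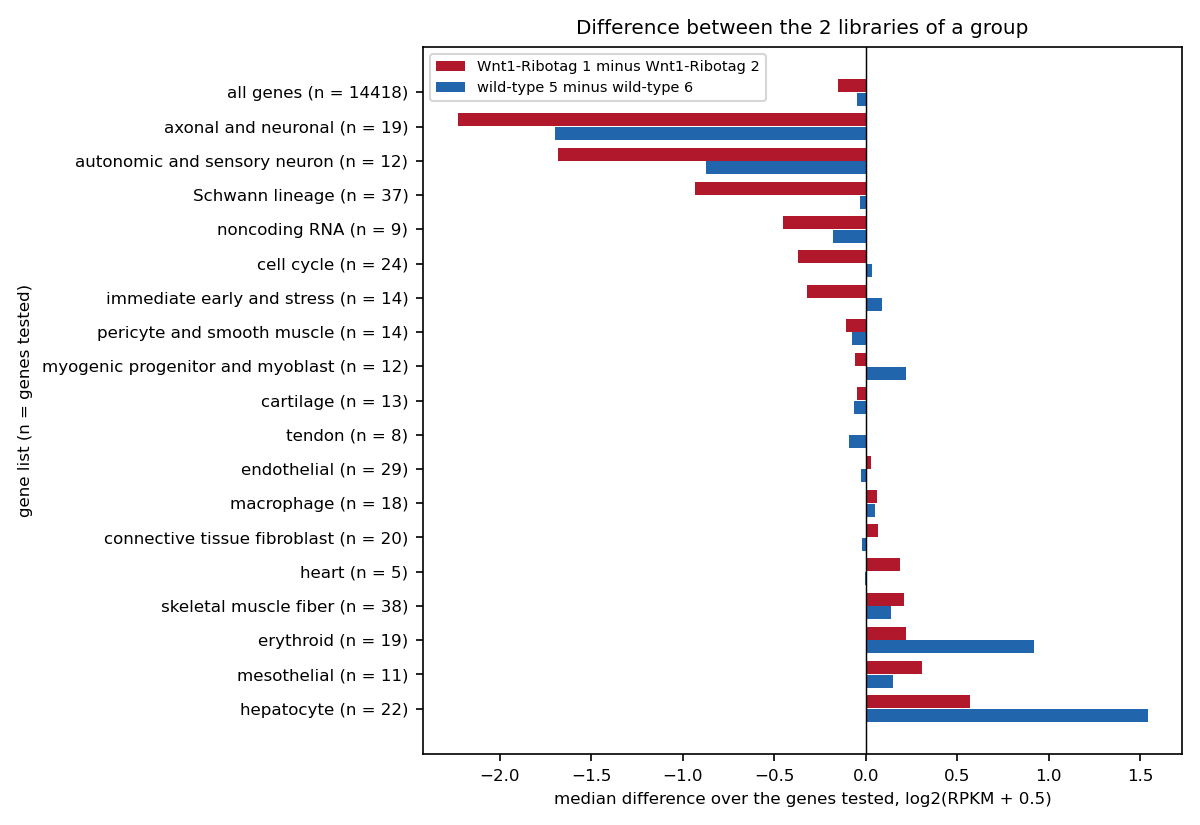
Median difference between the 2 libraries of a group (x axis, log2(RPKM + 0.5)) for each gene list with at least 5 genes tested (y axis), leaving out the adrenal lists, Wnt1-Ribotag 1 minus 2 in red and wild-type 5 minus 6 in blue. Neuronal lists lean to the second library in both groups, the Schwann lineage list leans to Wnt1-Ribotag 2 and is near 0 in wild-type, and blood and liver lists lean to wild-type 5.

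Each precipitate was last set against a different wild-type library, so that the pairs shared no sample. Across the genes tested, Pearson's r between the difference of Wnt1-Ribotag 1 from wild-type 5 and that of Wnt1-Ribotag 2 from wild-type 6 was 0.450, and 0.408 with the wild-type libraries exchanged. Among the 6287 genes whose mean RPKM was 10 or more, r was 0.543 and 0.534. At least 2-fold higher were 1049 genes (7.28%) in the first pair and 896 (6.21%) in the second, and 329 genes were common to both, 31.4% of the first and 36.7% of the second. At least 2-fold lower were 848 and 571 genes, with 150 common to both, 17.7% and 26.3%. Of the 37 Schwann lineage genes, 20 were at least 2-fold higher in the first pair and 27 in the second, and of the 38 muscle fiber genes 1 in each.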

How the data were processed

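RNA-Seq libraries of diaphragm muscle were assigned to groups by their labels. The authors deposited, for each library, RPKM of 23076 Ensembl gene identifiers, 3 of them without a value, together with a score that marks the genes at the lowest possible level. STAR and build mm9 are named in the labels' processing notes, and the program behind the RPKM is not given in the sources used here. Read counts were not used. RPKM depend on the length and total of a library, so that a very abundant transcript lowers the others slightly. Depth was computed from the floor of single-exon microRNA genes, of which 80.4% to 81.7% gave 1 depth within 1e-4.

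GENCODE M21 gave symbols for 21583 identifiers and none for 1490. A pseudocount of 0.5 was added to the RPKM before log2, and a gene was tested where its mean RPKM in the 4 libraries reached 0.5. The test was limma 3.58.1 in R 4.3.3 (eBayes, trend on, no block), adjusted by Benjamini-Hochberg with a threshold of 0.05, and was tried on simulated data first. Python 3.11.15, pandas 2.3.3 and matplotlib 3.10.9 made tables and figures.

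The members, the 21 gene lists and the tests were chosen with earlier results of these data known. Genes named are the markers Sox10, Fabp7 and Pecam1, the genes Rpl22, Wnt1, Erbb3, Serpinc1 and Serpind1, the 5 most abundant tested genes of each list (15 for the Schwann lineage), the 12 largest differences each way among genes at least 2-fold different in all pairs, genes past the adjusted threshold (up to 10 with all 6 libraries), and the 6 largest differences each way between the precipitates. Not all of these have their values printed, and some genes are not reported here. Other genes, and the adrenal and Y-linked genes, were chosen after their values were seen. Each result was recomputed at pseudocounts of 0.1 and 1, with no filter or one at a mean RPKM of 1, with median-ratio scaling, with quantile normalization, with no trend in eBayes, with all 6 libraries fitted, at an adjusted p of 0.1, at 1.5-fold and 3-fold in place of 2-fold, and without each library in turn. Protein-coding genes only and genes above the floor in all 4 libraries were added after the data were seen.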

Additional observations from a re-analysis of the deposited data

How the results depend on the processing

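Over 93 log2 differences of single genes, 21 values under alternatives had the other sign, all in genes whose groups overlapped, and for the rest most alternatives could not turn the sign. Sptb, the gene past the adjusted threshold, had an adjusted p of 0.0619 from limma without a filter. The number of genes past the threshold in limma, 1 in the fit of 4 libraries, was 0 without a filter (3921 genes then had an unadjusted p under 0.05), 2 after median-ratio scaling, 5 at an adjusted p of 0.1, 138 with all 6 libraries, and between 26 and 5965 when a library was left out. Without a Wnt1-Ribotag library the lone precipitate is assumed to vary like the wild-type libraries, which gave 4482 and 5965 genes. Genes at least 2-fold higher in all pairs, 218, were 348 at a pseudocount of 0.1, 606 at 1.5-fold, 72 at 3-fold and between 270 and 794 without a library, and genes lower, 119, were 209, 620, 21 and between 151 and 619 in the same order, 62 at a pseudocount of 1 and 71 among protein-coding genes only. Fewer pairs remain when a library is left out.

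The medians of the Schwann lineage, axonal and neuronal, skeletal muscle fiber, noncoding RNA, immediate early and stress and cell cycle lists moved by less than the spread between the precipitates, a wide measure here, under all alternatives run. Without a library, the median lay between 1.28 and 2.45 for the Schwann lineage, 1.39 and 3.51 for axonal and neuronal, -0.055 and 0.21 for muscle fiber, 0.36 and 0.97 for noncoding RNA, -0.18 and 0.027 for immediate early and stress and -0.59 and -0.32 for cell cycle genes, and between 1.45 and 3.06 for autonomic and sensory neurons, -0.29 and -0.16 for endothelium, -0.35 and -0.17 for pericytes and smooth muscle, -0.46 and -0.13 for myoblasts, -0.56 and -0.30 for fibroblasts, -0.68 and -0.58 for mesothelium, -0.47 and -0.28 for tendon, -0.16 and -0.02 for cartilage, -0.77 and -0.59 for macrophages, -0.71 and 0.22 for erythroid, -1.02 and 0.75 for hepatocyte and -0.65 and -0.12 for heart genes. Median-ratio scaling gave -0.60 for mesothelium and 0.016 for immediate early and stress genes. The cartilage median was -0.16 and -0.11 at pseudocounts of 0.1 and 1, -0.034 without a filter, -0.22 at a mean RPKM of at least 1, -0.072 after median-ratio scaling and -0.18 after quantile normalization. The heart median was -0.11 without a filter and -0.66 at a mean RPKM of at least 1. The cause of these changes was not tested.

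No paired analysis was possible because the precipitates carry the replicate numbers 1 and 2 and the wild-type libraries the numbers 5 and 6. Genes near the floor rest on few reads, and no counting error is given, since the files hold no counts.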

Other observations

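The remaining lists held no difference of at least 2-fold in all pairs, apart from Xist among the noncoding RNAs. The 9 noncoding RNAs tested had a median log2 difference of 0.62, the 14 immediate early and stress genes one of -0.056, the 5 heart genes one of -0.35, the 4 epithelial genes one of -0.65 and the 3 motor neuron genes one of 1.27. Egr1, an immediate early factor, had an RPKM of 10.1 and 12.5 in the precipitates against 10.6 and 12.1, and Jun had 20.5 and 25.5 against 23.2 and 23.6, so that the groups overlapped in both. Of the 5 heart genes 2 had a difference above 0 and 3 below. Myl7, a myosin light chain of the atria, had 5.73 and 1.59 against 16.9 and 8.96. Myh6, the most abundant of the 5, had 24.5 and 15.4 against 17.5 and 17.6, so that the groups overlapped.

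The length of genes moved with the difference between the precipitates. In the quartile of the 3499 genes with the shortest exon sequence, Wnt1-Ribotag 1 was lower than Wnt1-Ribotag 2 by a median of 0.33 on the log2 scale, and in the quartile of the 3497 longest it was higher by a median of 0.024. The median difference of the precipitates from wild-type muscle was -0.12 in the shortest and -0.031 in the longest quartile. The part of gene length in the lists' values was not tested.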
